A study of Mus musculus with 8 samples.

Results

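The measurements cover 10 genes of the integrated stress response and of the serine and asparagine synthesis that it controls, in the liver and in the fat pad along the epididymis (eWAT, a white adipose tissue) of Crtc1-/- and Crtc1+/+ mice. Atf4, Atf5, Ddit3, Trib3, Chac1, Sesn2, Ddit4, Asns, Phgdh and Psat1 were taken by symbol from the deposited count table, which made 10 of 19348 genes listed. No cut on a measured value picked them, but they were chosen with earlier results of these data known. The study made whole-body Crtc1-/- mice with CRISPR/Cas9 to ask how a CREB coactivator bears on fat and glucose metabolism. The RNA came from male C57BL/6 mice of 12 weeks on a normal diet, killed after a 16 h fast. Each tissue gave 2 libraries labelled Crtc1-/- and 2 labelled Crtc1+/+, 8 in all, described as independent biological replicates, and every group shared the strain, sex, age, diet and fast.

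In the integrated stress response, kinases that sense amino acid lack, misfolded protein, heme lack or double-stranded RNA phosphorylate eIF2, which slows most translation but favours that of ATF4 and ATF5. ATF4, paired with C/EBP proteins, then switches on amino acid transporters, tRNA synthetases and the enzymes that make asparagine and serine. Its target CHOP (encoded by Ddit3) and the feedback inhibitor TRIB3 shape the later response. Much of the control of ATF4 acts on translation, so the mRNA of Atf4 itself is a partial readout of the pathway.

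The 4 promoter stretches printed here hold elements to which factors of this response are known to bind. The windows were the RefSeq sequences from 250 bases before to 50 bases after each gene start (GRCm38.p6), and all 10 genes matched. The C/EBP-ATF composite core, TGATGNAA on either strand, was in the windows of Chac1, Asns and Trib3. The capitals mark the core in the first 3 lines, which for Chac1 and Trib3 lies on the opposite strand, and in the last line the 5-base core of a CRE (TGACG on the opposite strand) in Atf4, the factor itself:
Chac1, chr2:119351019-119351086, plus strand: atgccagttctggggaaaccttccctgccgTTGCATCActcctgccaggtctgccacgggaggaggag
Asns, chr6:7693210-7693262, minus strand: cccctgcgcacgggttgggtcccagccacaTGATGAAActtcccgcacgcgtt
Trib3, chr2:152344028-152344057, minus strand: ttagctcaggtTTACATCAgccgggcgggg
Atf4, chr15:80255160-80255189, plus strand: ttcggctttgacCGTCAgagctttggctag

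The core began 193 bases before the start of Chac1 and 23 bases before that of Asns, and 14 bases after that of Trib3. It was in the windows of 3.57% of 15154 genes of the table with a window, against 3 of these 10. The full CRE, TGACGTCA, was in none of the 10 windows and in those of 2.86% of genes. The 5-base core TGACG, which also counts every full CRE, was in the windows of Atf4, Trib3, Chac1 and Asns, and in those of 29.1% of genes. A match describes letters in these windows and is not a measured binding site.

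Libraries held 16560070 to 19721464 estimated counts, at which 3 counts make 0.152 to 0.181 CPM (counts scaled to a common library total). Crtc1 itself was not lower in libraries labelled Crtc1-/-, with 58.5 and 33.6 CPM against 32.5 and 33.7 in eWAT and 22.1 and 18.0 against 11.7 and 9.86 in liver. The deletion took out a few exons, so a count over the whole gene does not check it, and groups are named below by their labels. Markers of other cell types were abundant in 3 of the 4 eWAT libraries. Epididymal markers (14 genes, with Gpx5 and Lcn5) summed to 67479 and 81512 CPM in eWAT labelled Crtc1+/+ but to 23.8 and 13.8 CPM in eWAT labelled Crtc1-/-, where 5 and 4 of the 14 were at 0. Adipocyte markers (12 genes) summed to 2819 and 4898 CPM in eWAT labelled Crtc1+/+ against 49449 and 28764 CPM in eWAT labelled Crtc1-/-. Hepatocyte markers (12 genes, with Alb) reached 127735 CPM in eWAT labelled Crtc1-/- replicate 2, near the 196554 to 226617 CPM of liver, against 706 to 5606 CPM in the other eWAT libraries. Endothelial markers (6 genes) summed to 4005 and 2842 CPM in eWAT labelled Crtc1-/- against 233 and 248 CPM, and macrophage markers (6 genes) to 755 and 399 CPM against 177 and 110.2 CPM. The part of these differences in the results below was not tested unless a value without a library is given. In such bulk tissue, fewer cells of a type and less RNA per cell cannot be told apart.

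Among these genes, Trib3 and Chac1 rose in eWAT labelled Crtc1-/-, by 9.13-fold and 5.69-fold, and no gene of the 10 fell by the same test. Over 15391 genes, edgeR with p-values adjusted by Benjamini-Hochberg called 2 of the 10 at an adjusted p under 0.05, both higher, where 12.2% of all genes were called and 6.65% were called higher. A looser rule called genes by a change of over 2-fold either way and a raw p below 0.01. By it Atf5 and Asns joined them, which made 4 of 10 against 15.9% of all genes. The median log2 fold change was 0.87 over the 10 genes and -0.05 over all genes tested. Without TMM factors these medians were 0.59 and -0.35, both genes kept their calls, and 587 of 1662 calls over all genes were higher in place of 1023 of 1875. In 8 of the 10 the libraries labelled Crtc1-/- lay wholly above those labelled Crtc1+/+, against 31.3% of all genes, Psat1 lay wholly below, against 35.4%, and Phgdh overlapped. On CPM of the library total or on FPKM, Ddit3 and Ddit4 overlapped as well, and 6 of 10 were wholly above, against 21.1% and 20.9% of genes. The plot of levels by library shows this for eWAT and liver.

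**Figure D1:**
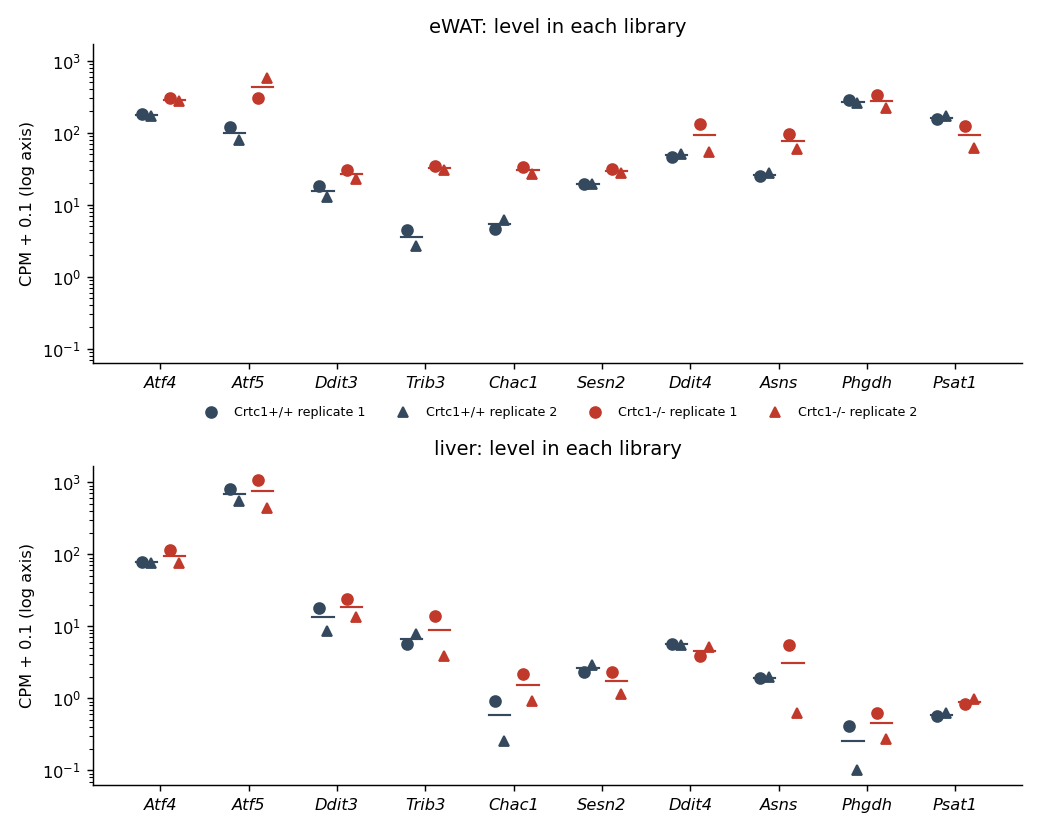
Level of each gene in each of the 8 libraries, in CPM with within-tissue TMM factors plus an offset of 0.1, on a log axis; circles are replicate 1, triangles replicate 2, short bars the mean of 2 libraries. In eWAT Trib3 and Chac1 stand at 26.6 to 34.0 CPM in libraries labelled Crtc1-/- and at 2.59 to 5.96 CPM in those labelled Crtc1+/+, while in liver most genes overlap between the labels.

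None of the 3 transcription factors passed the test. Atf4, the central factor of the response, had 304 and 270.1 CPM under the label Crtc1-/- against 180 and 171 CPM under the label Crtc1+/+. The groups did not overlap, but the log2 fold change of 0.71 ± 0.29 (SE) gave an adjusted p of 0.164. Atf5, a relative that is likewise controlled through translation, was at 302 and 567 CPM against 121 and 77.8 CPM. All libraries labelled Crtc1-/- were above the others, at a log2 fold change of 2.13 ± 0.47 and an adjusted p of 0.0518. Its higher value was in replicate 2, the library with the hepatocyte markers, and liver held 445 to 1068 CPM of Atf5. With that library left out, the log2 fold change was 1.59 with an adjusted p of 0.0430. Ddit3, which encodes CHOP, was at 30.2 and 22.9 CPM against 18.1 and 12.8 CPM. This was a log2 fold change of 0.78 ± 0.37 with an adjusted p of 0.212.

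The feedback and effector genes held both genes that rose. Trib3, a pseudokinase that ATF4 and CHOP induce and that restrains ATF4, had 34.0 and 29.8 CPM under the label Crtc1-/-, a mean of 31.9 ± 3.0 (SD, n = 2), against 4.38 and 2.59 CPM, a mean of 3.48 ± 1.26 (SD, n = 2). Every library labelled Crtc1-/- was far above both others, at a log2 fold change of 3.19 ± 0.44 and an adjusted p of 0.0226. Chac1, which breaks down glutathione, was at 33.1 and 26.6 CPM, a mean of 29.9 ± 4.54 (SD, n = 2), against 4.52 and 5.96 CPM, a mean of 5.24 ± 1.02 (SD, n = 2). The groups again lay apart, at a log2 fold change of 2.51 ± 0.38 and an adjusted p of 0.0262. Sesn2, a leucine sensor that restrains mTORC1, was at 31.5 and 27.1 CPM against 19.0 and 19.1 CPM. The difference of 0.62 ± 0.31 on the log2 scale had an adjusted p of 0.225. Ddit4 (also called Redd1), another inhibitor of mTORC1, was at 132 and 53.8 CPM against 46.3 and 49.9 CPM. Its 2 libraries labelled Crtc1-/- differed 2.46-fold from each other, and the log2 fold change of 0.95 ± 0.48 had an adjusted p of 0.228.

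None of the 3 synthesis enzymes passed the test, and their values differed in direction. Asns, asparagine synthetase, had 94.3 and 58.1 CPM under the label Crtc1-/- against 24.5 and 27.4 CPM. The groups lay apart, with a log2 fold change of 1.55 ± 0.35 and an adjusted p of 0.0523. Phgdh, which makes the first committed step of serine synthesis, was at 329.9 and 217 CPM against 279 and 257 CPM. The libraries labelled Crtc1-/- enclosed the others, and the log2 fold change was 0.03 ± 0.35 with an adjusted p of 0.961. Psat1, the aminotransferase of the next step, was at 124 and 61.2 CPM against 155 and 168 CPM. It was below both other libraries in each, with a log2 fold change of -0.80 ± 0.42 and an adjusted p of 0.238.

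The calls of Trib3 and Chac1 held without either library labelled Crtc1-/-, the one with the hepatocyte markers included, at log2 fold changes of 3.27 and 2.62 without it. They were lost without either library labelled Crtc1+/+, with adjusted p of 0.143 and 0.159 without replicate 1 and 0.252 for both without replicate 2, in fits that called no gene at all. Without replicate 2 labelled Crtc1-/-, Atf5, Asns and Ddit4 joined them, and 5 genes were called. Without replicate 1 of that label Atf5 joined them as well, at a log2 fold change of 2.52 with an adjusted p of 0.0128, while Ddit4 was at 0.17 with an adjusted p of 0.772. Without replicate 2 Psat1 had a log2 fold change of -0.41, and one of -1.39 without replicate 1 labelled Crtc1-/-. The 2 eWAT libraries labelled Crtc1+/+ held the epididymal markers, so the label and that RNA cannot be told apart.

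**Figure D2:**
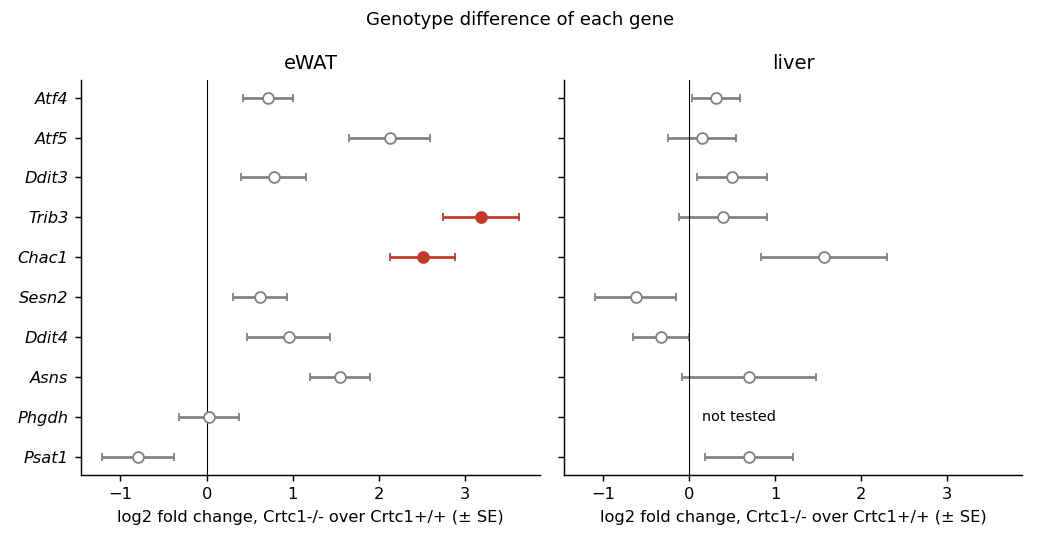
Log2 fold change of libraries labelled Crtc1-/- over those labelled Crtc1+/+ for each gene in eWAT (left) and liver (right), with bars of 1 SE from edgeR; filled red points have an adjusted p under 0.05. Trib3 (3.19) and Chac1 (2.51) are the filled points, and no liver value is filled.

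The 7 lists of other genes of the pathway held 124 genes, of which 122 were tested in eWAT. Of these, 8 were called higher and 8 lower in eWAT labelled Crtc1-/-, near the shares of all genes, 6.65% and 5.54%. None of 115 tested in liver was called. Of 18 other ATF4 and CHOP targets, 6 were called higher and none lower, with a median log2 fold change of 1.40. Eif4ebp1, an inhibitor of cap-dependent translation, was at 607 and 494 CPM against 61.6 and 58.8 CPM. This was a log2 fold change of 3.19 ± 0.34 with an adjusted p of 0.0170. Cdkn1a, the cell cycle inhibitor p21, was at 281 and 210.1 CPM against 42.9 and 43.3 CPM, a log2 fold change of 2.51 with an adjusted p of 0.0194. The bZIP factor Jdp2 (log2 fold change of 2.93, adjusted p of 0.0263), the stress protein Nupr1 (2.17, adjusted p of 0.0333), Ndrg1 (1.79, adjusted p of 0.0332) and the autophagy gene Map1lc3b (1.52, adjusted p of 0.0461) were the others. Without TMM factors Nupr1, Ndrg1 and Map1lc3b were not called. All 6 are also controlled by factors other than ATF4.

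The transporters and the one-carbon enzymes had values in both directions. Of 11 amino acid transporters tested, 1 was called higher and 2 lower, and the median was -0.57, with 3 positive values and 8 negative. Slc7a5, the light chain of the large neutral amino acid carrier LAT1, was at 31.8 and 5.90 CPM against 687 and 933 CPM. It fell by 5.43 on the log2 scale, with an adjusted p of 0.0340. Slc7a1, a carrier of cationic amino acids, was at 19.6 and 13.3 CPM against 85.8 and 158 CPM, a log2 fold change of -2.89 with an adjusted p of 0.0266. Slc43a1, another carrier of large neutral amino acids, rose, at 40.7 and 49.7 CPM against 12.9 and 10.7 CPM and a log2 fold change of 1.93 with an adjusted p of 0.0303. Slc7a11, the cystine carrier, had a log2 fold change of -3.17 with an adjusted p of 0.0790. Of 20 enzymes of serine, glycine and folate one-carbon metabolism, none was called higher and 2 lower, both in the mitochondrial folate path. The median was -0.28, with 9 positive values and 11 negative. Between the 2 libraries labelled Crtc1-/-, replicate 1 was higher by 2-fold or more in 6 of the 20 and lower by as much in 11. Mthfd1l was at 3.30 and 1.39 CPM against 40.4 and 39.8 CPM (log2 fold change of -4.09, adjusted p of 0.0220), and Mthfd2 at 15.1 and 3.96 CPM against 105 and 117 CPM (-3.54, adjusted p of 0.0409). Sds, the serine dehydratase that liver uses in gluconeogenesis, was at 192 CPM in the library with the hepatocyte markers and at 0.881 to 11.5 CPM in the other 3.

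Of 22 chaperones and sensors of endoplasmic reticulum stress, 19 had a negative log2 fold change and the median was -1.58, with 2 called lower and none higher. The list also differed between the libraries of 1 label. Replicate 1 was above replicate 2 in 2 of 22 under the label Crtc1-/- (median log2 ratio of -0.70), where 61.5% of all genes were. Under the label Crtc1+/+ it was above in 0 of 22 (median of -0.58), where 50.4% of all genes were. Derl3, of the degradation machinery, was at 4.89 and 6.73 CPM against 131 and 153 CPM, a log2 fold change of -4.61 with an adjusted p of 0.0153. Pdia6, a disulfide isomerase, was at 196 and 225 CPM against 737 and 1053 CPM, a log2 fold change of -2.09 with an adjusted p of 0.0358. Of 20 cytosolic tRNA synthetases, Wars alone was called, at 166 and 89.9 CPM against 705 and 663 CPM and a log2 fold change of -2.42 with an adjusted p of 0.0350, and the median was -0.19. Of 18 bZIP partners and relatives of the 10 genes, Cebpd rose (2.28, adjusted p of 0.0194) and Ddit4l, a relative of Ddit4, fell (-5.31, adjusted p of 0.0399), with a median of 0.62. None of 13 eIF2 kinases, phosphatase subunits and eIF2B subunits was called, with a median of 0.02. Against a median of -0.05 over all genes, the list of other ATF4 and CHOP targets thus lay higher and that of endoplasmic reticulum chaperones lower, which describes these lists and is not a test of them. The 16 calls held without replicate 1 labelled Crtc1-/-, and 15 without replicate 2, all but Slc43a1. Without replicate 1 and without replicate 2 the log2 fold change was -7.09 and -4.71 for Slc7a5, -7.26 and -4.56 for Ddit4l, and -4.80 and -2.92 for Mthfd2, and without replicate 1 it was -4.84 for Mthfd1l. The 16 calls did not hold without replicate 1 or without replicate 2 of eWAT labelled Crtc1+/+, fits that leave 1 library under that label. Both libraries labelled Crtc1-/- had low epididymal markers, at 23.8 and 13.8 CPM. For Slc7a5 and the other genes here, the label and that RNA cannot be told apart.

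**Figure D3:**
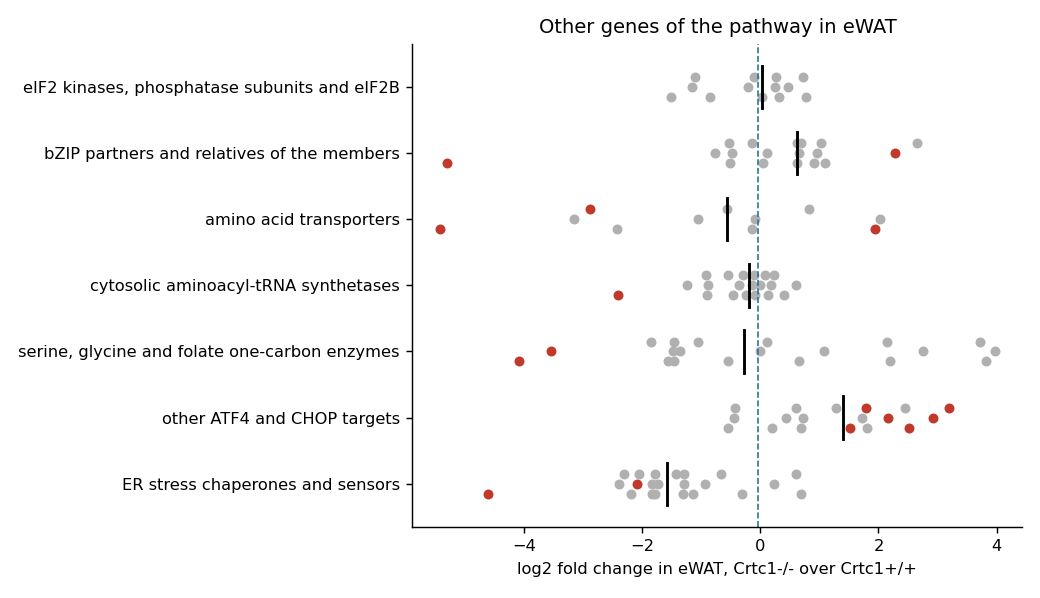
Log2 fold change in eWAT (labelled Crtc1-/- over labelled Crtc1+/+) of each tested gene of the 7 lists; red points have an adjusted p under 0.05, black bars are list medians and the dashed line is the median of all genes tested, -0.05. The list of other ATF4 and CHOP targets has its median at 1.40 and that of endoplasmic reticulum chaperones and sensors at -1.58.

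In liver none of the 9 genes tested was called, where 10 of 11707 genes, or 0.0854%, were called in all. None of the 9 had an unadjusted p under 0.05, a mark that 17.3% of all genes passed, and DESeq2 called none either. Phgdh failed the filter on low counts, with 10 and 3 counts in libraries labelled Crtc1-/- and 6 and 0 in those labelled Crtc1+/+. Atf5 had 1068 and 445 CPM under the label Crtc1-/- against 810 and 552 CPM. The first pair enclosed the second, and the log2 fold change was 0.15 ± 0.40 with an adjusted p of 0.866. Atf4 was at 115 and 76.3 CPM against 79.2 and 75.0 CPM, a log2 fold change of 0.31 ± 0.28 with an adjusted p of 0.580. Trib3 was at 13.6 and 3.79 CPM against 5.65 and 7.66 CPM, and the libraries labelled Crtc1-/- lay on both sides of the others. Chac1 was at 2.10 and 0.817 CPM against 0.821 and 0.157 CPM, which are 40, 14, 16 and 3 counts. The groups overlapped by a narrow margin, and its log2 fold change of 1.56 ± 0.73 had an adjusted p of 0.304. It was 0.74 without replicate 1 labelled Crtc1-/-, 3.15 without replicate 1 labelled Crtc1+/+ and 0.82 without replicate 2 labelled Crtc1+/+, and was called in none of these fits.

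The other liver genes were near or under 6 CPM except Ddit3, at 23.9 and 13.5 CPM against 18.1 and 8.44 CPM. Psat1, at 0.733 and 0.875 CPM against 0.462 and 0.525 CPM, lay wholly above, but rests on 9 to 15 counts a library. Sesn2, at 2.20 and 1.05 CPM against 2.21 and 2.83 CPM, and Ddit4, at 3.82 and 5.02 CPM against 5.65 and 5.45 CPM, lay wholly below. These 1 of 10 above and 2 of 10 below stood against 25.8% and 26.4% of all genes tested. On CPM of the library total or on FPKM, Atf4 and Chac1 lay wholly above too and Sesn2 overlapped, and 28.4% and 28.2% of genes lay above and 23% and 22.4% below. In the lists of other pathway genes in liver, Fgf21, a hormone that ATF4 and fasting both induce, was at 19.3 and 3.97 CPM against 5.39 and 1.78 CPM (log2 fold change of 1.70, adjusted p of 0.262). Ern1, the sensor IRE1, was at 1.15 and 1.34 CPM against 4.62 and 4.30 CPM, a log2 fold change of -1.83 with an adjusted p of 0.121.

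Within liver labelled Crtc1-/- the 2 libraries differed from each other in most of these genes. Replicate 1 was above replicate 2 in 8 of 10, where 49.6% of all genes tested were. It was above by 2-fold or more in 6 of 10, where 6.72% of all genes tested differed by that much in either direction. Asns was at 5.39 CPM in replicate 1 and 0.525 CPM in replicate 2 (103 and 9 counts), a ratio of 10.3, while both libraries labelled Crtc1+/+ lay between them at 1.80 and 1.89 CPM. The ratio was 3.59 for Trib3, 2.57 for Chac1, 2.40 for Atf5 and 2.10 for Sesn2, and 2.99 for Phgdh on 10 and 3 counts. Psat1 and Ddit4 were the exceptions, with replicate 2 above. Of 17 serine, glycine and one-carbon enzymes tested in liver, 16 were higher in replicate 1, where 49.6% of all genes tested were. The other lists did not share this. Replicate 1 was higher in 3 of 9 amino acid transporters, 7 of 20 tRNA synthetases and 6 of 17 bZIP partners and relatives. It was higher in 6 of 13 eIF2 genes, 11 of 17 other ATF4 and CHOP targets and 11 of 22 endoplasmic reticulum genes. The hepatocyte markers were at 196554 CPM in replicate 1 and 226617 CPM in replicate 2, the adipocyte markers at 1044 and 689.7 CPM, the epididymal markers at 80.2 and 10.9 CPM, the macrophage markers at 205 and 132 CPM and the endothelial markers at 52.3 and 54.3 CPM, and their part in the difference was not tested. In eWAT labelled Crtc1-/- replicate 1 was higher in 9 of the 10, all but Atf5, where 61.5% of all genes were, and 2 of the 10 differed by 2-fold or more, where 21.6% of all genes did. In liver labelled Crtc1+/+, Ddit3, Chac1 and Phgdh, 3 of the 10, differed by 2-fold or more, against 3.05% of genes. These are pairs of single libraries, so no test applies. Without replicate 1 labelled Crtc1-/-, the median log2 fold change of the 9 genes in liver went from 0.39 to -0.14, and Atf5, Trib3 and Asns had values of -0.60, -0.80 and -1.79. Without replicate 2 the median was 0.74.

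**Figure D4:**
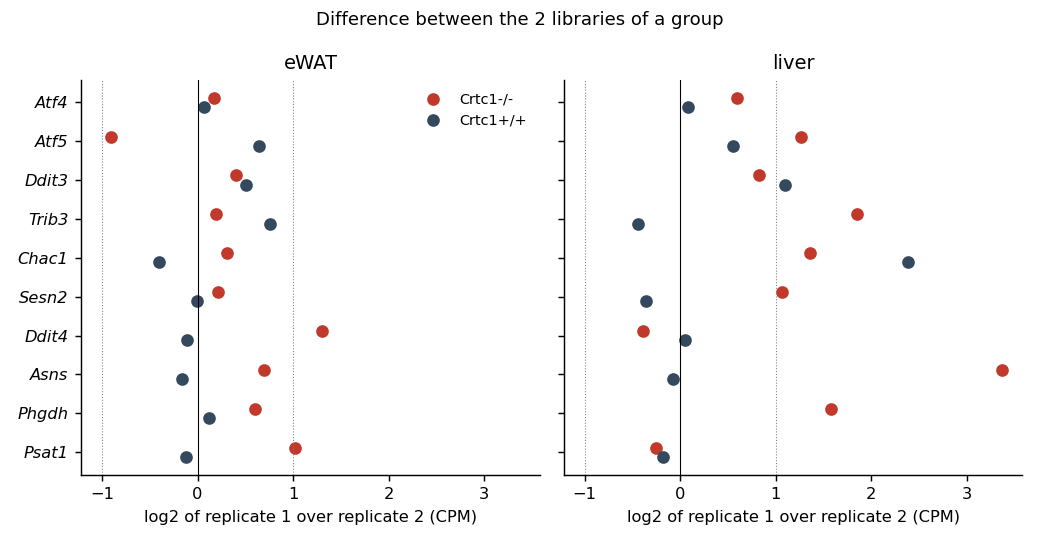
Log2 ratio of replicate 1 over replicate 2 for each gene in eWAT (left) and liver (right), from CPM; red is labelled Crtc1-/-, dark blue labelled Crtc1+/+, dotted lines mark 2-fold. In liver labelled Crtc1-/- 6 genes lie at or beyond 2-fold, with Asns at 10.3-fold; Phgdh in liver labelled Crtc1+/+ has no point, with 0 counts in replicate 2.

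The serine enzymes Phgdh and Psat1 had the largest differences between the tissues among the 10 genes. For this comparison all 8 libraries were scaled together by TMM. Under the label Crtc1+/+, Phgdh had 189 and 169 CPM in eWAT and 0.476 and 0 CPM in liver (6 and 0 counts). Its fitted log2 difference of 9.50 ± 1.03 had an adjusted p of 0.000929 and depends on how so few counts are treated. Psat1 was at 105 and 110.5 CPM in eWAT and at 0.714 and 0.814 CPM in liver, a log2 difference of 7.13 ± 0.40 with an adjusted p of 0.000437. Both enzymes thus had few counts in fasted liver, at most 15 a library, against at least 882 in each eWAT library. Atf5 went the other way, at 81.9 and 51.1 CPM in eWAT and 1251 and 858 CPM in liver, a log2 difference of -3.99 ± 0.68 with an adjusted p of 0.00394.

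In libraries labelled Crtc1+/+, 8 of the 10 genes were called between the tissues, where 54.9% of all genes were called (35% higher in eWAT and 19.8% lower). Asns (2.60), Chac1 (2.19), Ddit4 (1.90) and Sesn2 (1.70) were higher in eWAT along with Phgdh and Psat1, with adjusted p of 0.0331, 0.0354, 0.00616 and 0.00943. Trib3 was lower in eWAT, at 2.96 and 1.70 CPM against 8.72 and 11.9 CPM, a log2 difference of -2.14 ± 0.60 with an adjusted p of 0.0228. Atf4 was at 122 and 112 CPM in eWAT and 122 and 116 CPM in liver, with a log2 difference of -0.03 ± 0.30 and an adjusted p of 0.941. Ddit3 had a log2 difference of -0.99 ± 0.44 with an adjusted p of 0.0921.

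In libraries labelled Crtc1-/-, 7 of the 10 were called, where 27.8% of all genes were called (18.9% higher and 8.89% lower). The same 6 genes were higher in eWAT, with log2 differences of 8.26 for Phgdh, 5.52 for Psat1, 3.35 for Asns, 3.06 for Ddit4, 3.04 for Chac1 and 2.86 for Sesn2. Atf5 was lower, with a log2 difference of -2.07 ± 0.63 and an adjusted p of 0.0477. Trib3 was at 19.9 and 20.1 CPM in eWAT and 21.1 and 5.81 CPM in liver, so that eWAT lay within the spread of liver, with a log2 difference of 0.57 ± 0.57 and an adjusted p of 0.459. The eWAT library with the hepatocyte markers was one of the 2 in this comparison.

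The tissue values depend on the scaling, with TMM factors from 0.627 to 1.68 over the 8 libraries. The median log2 difference of all genes was 0.61 in libraries labelled Crtc1+/+ and 0.20 in those labelled Crtc1-/-, and 2.0 and 1.33 without TMM factors. Calls higher in eWAT then went from 5461 of 8552 to 10702 of 11826 under the label Crtc1+/+ and from 2945 of 4330 to 7022 of 7127 under the label Crtc1-/-. Relative to these medians Atf4 was lower in eWAT labelled Crtc1+/+ under both scalings, though its sign turned, to 1.37 with an adjusted p of 0.00849 without TMM factors. Trib3 was then at -0.74 with an adjusted p of 0.277. Phgdh, Psat1, Ddit4 and Atf5 in libraries labelled Crtc1+/+, and Phgdh, Psat1, Ddit4 and Sesn2 in those labelled Crtc1-/-, were called whichever library was left out. The other calls were each lost without at least 1 library. In libraries labelled Crtc1+/+, Trib3 lost its call without eWAT replicate 2 (adjusted p of 0.107), liver replicate 1 (0.0579) or liver replicate 2 (0.0924), Chac1 without eWAT replicate 1 (0.0651), eWAT replicate 2 (0.107) or liver replicate 2 (0.134), Sesn2 without liver replicate 1 (0.0683), and Asns without eWAT replicate 1 (0.0747), eWAT replicate 2 (0.0907), liver replicate 1 (0.144) or liver replicate 2 (0.134). In libraries labelled Crtc1-/-, Chac1 lost it without liver replicate 1 (0.0532) or replicate 2 (0.0993) of that label, and Asns without liver replicate 1 (0.0538) or replicate 2 (0.0541) labelled Crtc1+/+, which enter through the shared spread. Left-out liver libraries also moved the size of called values. In libraries labelled Crtc1-/-, without liver replicate 1 of that label Asns was at 5.86, Chac1 at 3.89, Sesn2 at 3.51 and Phgdh at 9.27, and without liver replicate 2 Asns was at 2.49. Ddit4 was at 2.42 without eWAT replicate 1. In libraries labelled Crtc1+/+, Chac1 was at 3.80 without liver replicate 1 and 1.45 without liver replicate 2, and Phgdh at 14.9, against 0 counts, and 8.53. Over all 15 alternatives, other scalings included, Chac1 there ran from 0.41 to 3.80 and was called in 8. In libraries labelled Crtc1-/-, Atf5 lost its call without any library but eWAT replicate 2 labelled Crtc1-/-, with adjusted p from 0.0594 to 0.212, and its log2 difference was -1.29 without liver replicate 1 labelled Crtc1-/- and -2.74 without that eWAT library.

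**Figure D5:**
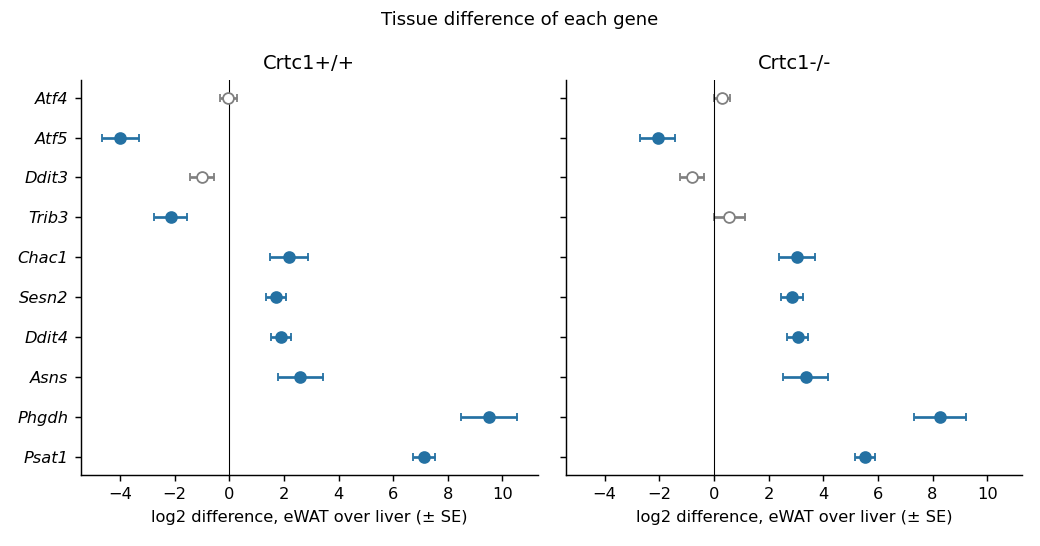
Log2 difference between eWAT and liver for each gene in libraries labelled Crtc1+/+ (left) and Crtc1-/- (right), with bars of 1 SE from edgeR with all 8 libraries scaled by TMM; filled blue points have an adjusted p under 0.05. Phgdh (9.50 and 8.26) and Psat1 (7.13 and 5.52) lie farthest to the eWAT side, and Trib3 is at -2.14 on the left and 0.57 on the right.

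Per transcript length, in FPKM, the order of the genes differed between the tissues. In eWAT labelled Crtc1+/+, Phgdh was highest at a mean of 174 ± 14.3 (SD, n = 2), followed by Atf4 (134 ± 9.82), Psat1 (88.9 ± 3.20), Atf5 (70.2 ± 23.1), Ddit4 (34.9 ± 1.03), Ddit3 (22.3 ± 6.53), Asns (16.2 ± 0.969), Sesn2 (8.46 ± 0.177), Chac1 (4.11 ± 0.707) and Trib3 (2.06 ± 0.785). Psat1 and Atf5, and Ddit3 and Asns, were neighbours whose SDs met. In liver labelled Crtc1+/+, Atf5 led at 422 ± 116 FPKM, ahead of Atf4 (49.8 ± 1.90) and Ddit3 (17.4 ± 8.78). Below them Ddit4 (3.55 ± 0.113) and Trib3 (3.43 ± 0.707) did not differ beyond their spread, nor did Asns (1.02 ± 0.0283) and Sesn2 (0.985 ± 0.163). Chac1 (0.340 ± 0.325), Psat1 (0.240 ± 0.0141) and Phgdh (0.0900 ± 0.127) came last. Chac1 overlapped both others within its SD, while Psat1 and Phgdh lay apart by a narrow margin. In eWAT labelled Crtc1-/-, Trib3 and Chac1 had risen to 15.1 ± 3.44 and 19.0 ± 5.44 FPKM, above Sesn2 at 10.6 ± 2.52.

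Whether the genotype difference itself differed between the tissues was tested as an interaction over all 8 libraries. None of the 10 genes was called, where 6.94% of all genes were. In edgeR, 2 had an unadjusted p under 0.05, Trib3 and Psat1, against 26.9% of all genes, while DESeq2 called Trib3. The log2 fold change of Trib3 was larger in eWAT by 2.70 ± 0.83, with an adjusted p of 0.0954. Psat1 had an interaction of -1.61 ± 0.48, lower in eWAT and higher in liver, with an adjusted p of 0.0920. Both stood short of the threshold, so the calls of Trib3 and Chac1 in eWAT alone do not show that the tissues differ. Leaving out 1 library made 1 call in 3 cases, namely Asns (3.27, adjusted p of 0.0496) without liver labelled Crtc1-/- replicate 1, Psat1 (-2.06, adjusted p of 0.0199) without eWAT labelled Crtc1-/- replicate 1, and Ddit4 (1.77, adjusted p of 0.0282) without eWAT labelled Crtc1-/- replicate 2.

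Phgdh, Psat1 and Asns varied most over the 8 libraries, with SDs of log2 CPM of 4.82, 3.33 and 2.05, and Atf4 least, with 0.32. The genes with the most similar profiles were found by the root mean square difference of log2 CPM, each gene centred on its mean, among 15587 genes over 8 libraries. For Phgdh they were Car4 (0.728), Penk (0.740) and Cfd (1.03), for Psat1 they were Cd34 (0.368), St6galnac2 (0.407) and Gper1 (0.430), and for Asns they were Hey1 (0.483), Sema4c (0.554) and Rims4 (0.561). All 9 were more abundant in each eWAT library than in each liver library. Within eWAT they did not share one pattern. Cfd, an adipocyte marker, had 5134 and 3105 CPM under the label Crtc1-/- against 552 and 729.9 CPM, where Phgdh was at 193 and 146 CPM against 189 and 169 CPM. St6galnac2 was lower, at 40.9 and 28.1 CPM against 122 and 132 CPM.

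The composite core was also counted over all genes. Of 362 tested genes with the core in the window, 6.91% were called higher in eWAT labelled Crtc1-/-, against 6.28% of 11840 tested genes without it, and the medians of their log2 fold changes were -0.02 and -0.06, with no test run between them. Among the 10 genes, the 3 with the core had log2 fold changes of 3.19 (Trib3), 2.51 (Chac1) and 1.55 (Asns), while Atf5, without it, stood at 2.13.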

How the data were processed

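RNA-seq of liver and eWAT, 2 libraries per tissue and genotype, was analysed from 2 deposited tables of 19348 genes. The authors deposited estimated counts, not normalized (5.44% to 9.98% of values per library not whole), and FPKM, both 1 column per library. The submitters' processing notes name HISAT, Bowtie2 and GRCm38.p6 without roles, and the counting tool is not given in the sources used here. Reads shared between paralogs may have been split, and overlapping genes cannot be told apart.

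Rounded counts that passed filterByExpr were tested with edgeR 4.0.16 in R 4.3.3 (quasi-likelihood fits, TMM factors), and p-values were adjusted by Benjamini-Hochberg across every gene tested. Genotypes were compared within each tissue on CPM with TMM factors of that tissue (0.818 to 1.14 in eWAT). Tissues and the interaction were tested in 1 fit of 8 libraries. SE is the log2 fold change over the square root of F. With 2 against 2, an exact permutation p cannot fall below 0.333. The p-values of edgeR set a group difference against the spread between these libraries, estimated with the help of all genes. Biological coefficients of variation were 0.517 in eWAT and 0.253 in liver. Counts of 3 or fewer were taken as the floor.

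All 10 genes could be named in every comparison. Of the other pathway genes, those with an adjusted p under 0.05 between genotypes and the 2 largest changes per list and tissue at a mean log2 CPM of at least 1 could be named, with the 3 nearest profiles of the 3 most variable genes (log2 CPM, prior count 2). The genes, lists and rules were chosen with earlier results of these data known. Alternatives were DESeq2 1.42.0, library-size scaling, no filter, limma 3.58.1 on quantile-normalized log2(FPKM + 1) and log2(FPKM + 0.1), a replicate block, other sets of libraries in the fit and each library left out. Overlap of groups on CPM of the library total and on FPKM, and the alternatives for other pathway genes, were added after seeing the data. The looser rule of calls follows the threshold of the authors. The scripts were tested on simulated data. Figures were drawn with matplotlib 3.10.9.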

Additional observations from a re-analysis of the deposited data

Results flagged for a closer look

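Of 122 other genes of the pathway tested over all 8 libraries, 8 passed the interaction test of edgeR at an adjusted p under 0.05. Their genotype difference thus differed between eWAT and liver. Over all genes 6.94% passed, so this count lay near the share of all genes. Values are log2 fold changes (labelled Crtc1-/- over labelled Crtc1+/+) and the difference between them. Cdkn1a, the inhibitor p21, had 2.51 in eWAT and -1.38 in liver, a difference of 3.80 ± 0.46 (SE) with an adjusted p of 0.0104. Eif4ebp1, the translation inhibitor, had 3.19 in eWAT and 0.32 in liver, a difference of 2.78 ± 0.39 with an adjusted p of 0.0127. The other 6 had the lower value in eWAT. The amino acid carriers Slc7a5 and Slc7a1 had differences of -5.34 (adjusted p of 0.0354) and -4.38 (adjusted p of 0.0110). Ddit4l, the relative of Ddit4, had a difference of -5.99 (adjusted p of 0.0345) and Derl3, of protein degradation at the endoplasmic reticulum, of -4.45 (adjusted p of 0.0205). The folate enzyme Mthfd1l had a difference of -3.18 (adjusted p of 0.0263) and the tRNA synthetase Wars of -2.43 (adjusted p of 0.0265). All 8 stayed called without either eWAT library labelled Crtc1-/-. Leaving out liver labelled Crtc1-/- replicate 1 left 2 calls (Cdkn1a and Slc7a1), and leaving out its replicate 2 left 2 (Cdkn1a and Derl3). With the replicate block Ddit4l, Slc7a5, Wars and Derl3 were not called, and with library-size scaling Slc7a5 and Wars were not. Without liver labelled Crtc1+/+ replicate 1 or replicate 2 none of the 8 was called, in fits that called 0 and 31 of all genes, and without eWAT labelled Crtc1+/+ replicate 1 or 2, 2 and 1 were called. In the same comparison the epididymal markers summed to 67479 and 81512 CPM in eWAT labelled Crtc1+/+ and to 23.8 and 13.8 CPM in eWAT labelled Crtc1-/-, and their part in these differences was not tested. No group had enough libraries for a search for single outlying values.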

How the results depend on the processing

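Liver gave 0 called genes of the 9 under every alternative run, and the count between tissues in libraries labelled Crtc1-/- stayed between 5 and 8 around 7. In eWAT the count of 2 became 5 under DESeq2 (Atf4, Atf5 and Asns added), 4 with no expression filter (Atf5 and Asns added) and 0 with a replicate block, and ran from 0 to 5 with each library left out. The count of 8 between tissues in libraries labelled Crtc1+/+ ran from 5 to 8 with each library left out, and the interaction count of 0 became 1 (Trib3) under DESeq2 and log2(FPKM + 0.1) and ran from 0 to 1. Equal replicate numbers could not be taken to pair the samples: the correlations of deviations were -0.05 between the eWAT groups, 0.07 between the liver groups, and between the tissues 0.24 under the label Crtc1+/+ and 0.0064 under the label Crtc1-/-. The methods of the study read as if both tissues came from the same mice, and the labels do not link them, so the tissue and interaction fits may treat libraries of 1 mouse as independent. With the replicate block 8, 6 and 0 genes were called between the tissues (labels Crtc1+/+ and Crtc1-/-) and in the interaction, in place of 8, 7 and 0. With the replicate block Trib3 and Chac1 in eWAT had adjusted p of 0.0543 and 0.0583, in a fit that called no gene, while liver had 82 genes called in place of 10. Over all genes, eWAT had 1875 calls, 4620 under DESeq2 and 3861 in the fit of 8 libraries, and liver had 10, with 311 under DESeq2, 301 with no filter and 0 on either FPKM scale. The tissues had 4330 in libraries labelled Crtc1-/-, with 7127 by library-size scaling and 2485 in a fit of those 4 libraries, and the interaction 1081, with 2056 under DESeq2, 2385 and 2170 on the FPKM scales and 705 by library-size scaling. Of the 16 other pathway genes called in eWAT, 12 held by library-size scaling, 12 on log2(FPKM + 1) and 13 on log2(FPKM + 0.1), a count added after seeing the data. By library-size scaling 4 calls higher and 8 lower were left. The calls lost, of Slc43a1, Nupr1, Map1lc3b and Ndrg1, were all higher ones.

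Signs turned for genes not called in the main test. In eWAT, Phgdh (0.03) went to -0.25 with library-size scaling, -0.42 and -0.42 on log2(FPKM + 1) and log2(FPKM + 0.1), -0.0018 with the replicate block, -0.076 in the fit of 8 libraries, and -0.30 to 0.27 with each library left out. In liver, Atf5 (0.15) went to -0.068 and -0.068 on the FPKM scales and Asns (0.69) to -0.19 on log2(FPKM + 0.1). With each library left out, liver ran from -0.0044 to 0.57 for Atf4, -0.60 to 0.64 for Atf5, -0.80 to 1.03 for Trib3 and -1.79 to 1.54 for Asns. Between tissues in libraries labelled Crtc1+/+, Atf4 (-0.03) went to 1.37 with library-size scaling, 1.04 and 1.05 on the FPKM scales and -0.20 to 0.014 with each library left out, and Ddit3 (-0.99) to 0.41 with library-size scaling. In libraries labelled Crtc1-/-, Ddit3 (-0.80) went to 0.35 with library-size scaling and Trib3 (0.57) ran from -0.083 to 1.78 with each library left out. In the interaction, Atf4 (0.31) went to -0.084 and -0.087 on the FPKM scales and Ddit3 (0.18) to -0.059 with library-size scaling. With each library left out it ran from -0.45 to 0.67 for Ddit3, -0.76 to 1.71 for Chac1 and -0.10 to 3.27 for Asns. The cause was not tested. No called value of the 10 genes turned its sign, and 26 such values lost the call with 1 library left out, where 102 kept it, and 16 under the other settings, where 103 kept it. Depth limits Phgdh, Psat1 and Chac1 in liver.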
